A study of Mus musculus with 8 samples.

Results

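The genes described here are 39 members of the interferon response and of class I antigen presentation, measured in mouse fetal small intestine at 18.5 days post coitum. There were 4 Plagl2 knockout and 4 wild-type samples, with 1 Affymetrix MOE430 2.0 array each, and both groups were of the same age and tissue. The sources used here do not give the strain, the allele or the litters. A p-value therefore covers only the spread among these 8 samples, which may in part be technical. Members were taken by name. A probe set counted when its annotation held exactly 1 gene symbol and that symbol was a member, which gave 56 of the 45101 probe sets on the array. These covered 37 of the 39 genes, since Isg15 and Ifi44 had no probe set under a symbol of their own. In 33 genes, with 48 probe sets, the signal was bright enough for the test, and Cxcl9, Mx1, Mx2 and Nlrc5 were too dim.

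Interferons are secreted when a cell senses foreign or misplaced nucleic acid. They bind receptors that act through Jak kinases, and a complex of Stat proteins with Irf9 then enters the nucleus and binds a short DNA element, the interferon-stimulated response element, in front of its target genes. The products of these genes block viral replication, while a further group, which interferon gamma induces most strongly, cuts proteins into peptides and loads them on class I molecules at the cell surface. In the intestine the epithelium is known for its response to interferon lambda, whose receptor contains the subunit Il10rb.

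Plagl2 had signals of 3, 6, 5 and 11 in knockout replicates 1 to 4, against 824, 817, 697 and 796 in wild-type replicates 1 to 4. The extraction protocol calls every sample wild type although the titles name 4 knockouts, and the Plagl2 signal divides the arrays as the titles do. Array medians were 36 to 42, and log2 signals of arrays correlated at 0.950 to 0.974 within and 0.926 to 0.948 between genotypes. Epithelial markers were bright in every array, with a summed signal of 21475 to 27879 in knockouts and 21135 to 24130 in wild types. Knockout replicate 4 and wild-type replicate 3 had the lowest epithelial sums of their groups, 21475 and 21135. The same arrays had the highest stromal marker sums of their groups, 24851 and 20908. The part of tissue make-up in the member values was not tested. The Xist signal was 1828 in knockout replicate 2, 1410 in knockout replicate 3 and no higher than 47 in any other array. The sex-linked gene Eif2s3y had 564, 7, 3 and 642 in knockouts, against 770, 562, 721 and 646 in wild types. Uty, another, had 154, 1, 8 and 181 in knockouts, against 235, 233, 211 and 257 in wild types. Knockout replicates 2 and 3 thus differed from all other arrays in sex-linked genes. Control probe sets gave a 3' over 5' log2 ratio of 0.017 to 0.098 in knockouts and -0.055 to 0.007 in wild types. These ranges do not overlap, so the ratio goes with genotype in these arrays. Knockout replicate 4 and wild-type replicate 3 stood apart in the genes described here, and results are given with and without them. Wild-type replicate 3 also stood apart beyond these genes. On the first principal component, the main axis of difference among arrays (44.3% of variance), it lay at -21.9. The other wild types lay at -44.7 to -43.3 and the knockouts at 35.7 to 40.7.

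Most interferon-response and antigen-presentation genes showed no difference between genotypes past the test, while Ifit1 and Stat2 fell and Oasl1 rose in the knockout. Every fold change here divides knockout by wild type and is given as a difference of log2(signal + 16), fitted with limma over all 27022 probe sets tested. A gene was called where the Benjamini-Hochberg adjusted p lay under 0.05. Of the 33 members tested, 2 were called lower and 1 higher. At an unadjusted p under 0.05 there were 5 of 33 (15.2%), against 29.7% of all genes. Over all 12838 genes tested, 8.5% were called lower and 6.6% higher, so the members' counts lie near or under the background. By probe sets, 3 of 48 were called lower and 1 higher, against 6.7% and 5.28% of all probe sets tested. Their median log2 fold change was -0.04, with 17 of 33 below 0, beside a median of 0.03 over all genes. Stat2 was the 1 member with every knockout below every wild type and Trim25 the 1 member with every knockout above, against 11.1% and 8.88% of all genes (19.9% either way).

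**Figure D1:**
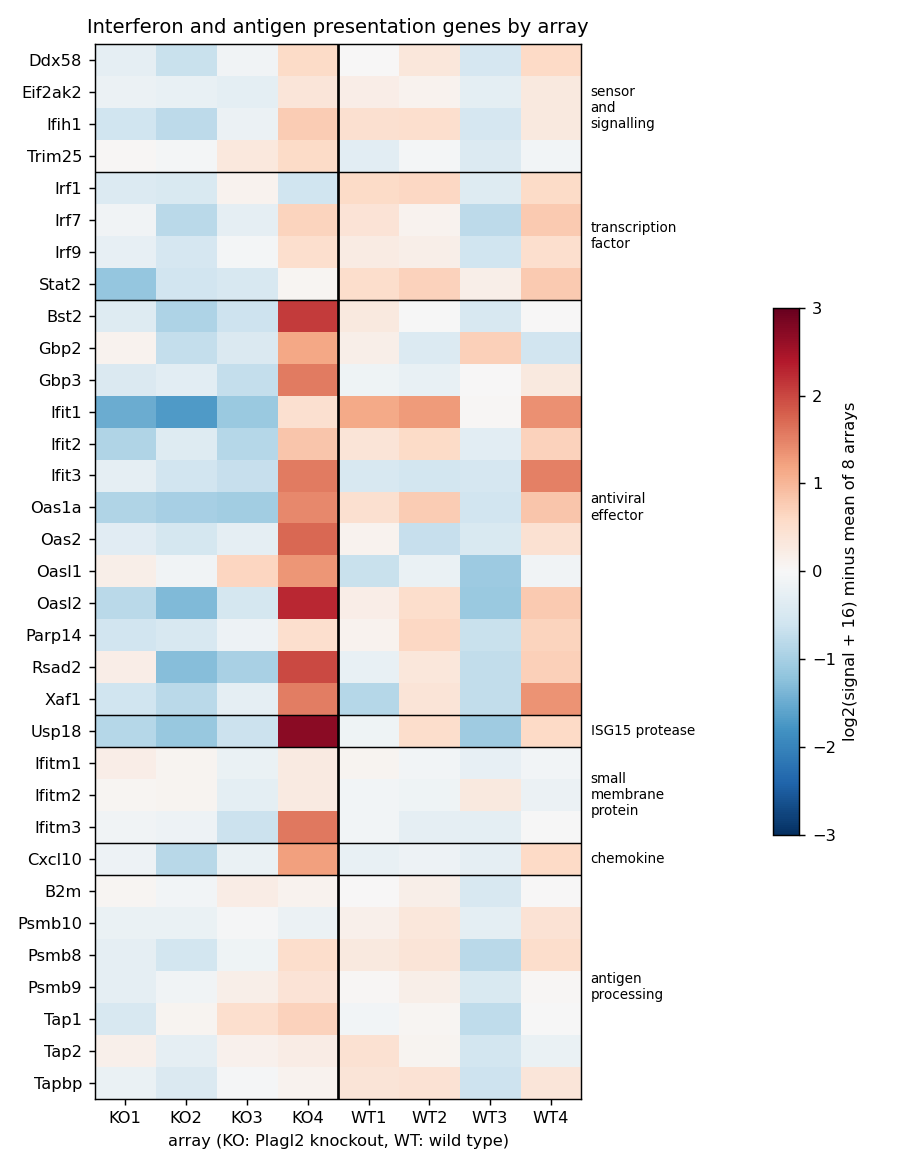
Level of each of the 33 member genes tested (rows, grouped by role) in each array (columns, 4 knockouts left of 4 wild types), coloured by log2(signal + 16) minus the gene's mean over the 8 arrays. Knockout replicate 4 was the highest knockout in 30 of 33 genes and wild-type replicate 3 the lowest wild type in 27 of 33.

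Promoters are shown for 5 members. Ifit1, Stat2 and Oasl1 are shown because they carry the calls, and Oasl2 and Oas1a because they were among the 5 members most raised in knockout replicate 4, 1 without and 1 with a match. Each sequence runs 5' to 3' on the gene's own strand, from 250 bases before to 50 bases after the RefSeq start, on build GRCm38.p6. Capitals mark matches to the response element, searched as GAAA, any 2 bases and GAAA again, on both strands, so that a match on the opposite strand begins and ends with TTTC. The windows are chr19:34640639-34640938 on the plus strand for Ifit1, chr10:128270248-128270547 on the plus strand for Stat2, chr5:114922990-114923289 on the plus strand for Oasl1, chr5:114896684-114896983 on the plus strand for Oasl2 and chr5:120907476-120907775 on the minus strand for Oas1a.
Ifit1: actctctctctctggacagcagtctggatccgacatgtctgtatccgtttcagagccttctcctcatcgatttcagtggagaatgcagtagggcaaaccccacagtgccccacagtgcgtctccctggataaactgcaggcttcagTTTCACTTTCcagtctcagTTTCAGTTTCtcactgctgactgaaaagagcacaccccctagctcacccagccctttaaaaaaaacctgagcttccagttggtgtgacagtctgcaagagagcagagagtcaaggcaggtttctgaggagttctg
Stat2: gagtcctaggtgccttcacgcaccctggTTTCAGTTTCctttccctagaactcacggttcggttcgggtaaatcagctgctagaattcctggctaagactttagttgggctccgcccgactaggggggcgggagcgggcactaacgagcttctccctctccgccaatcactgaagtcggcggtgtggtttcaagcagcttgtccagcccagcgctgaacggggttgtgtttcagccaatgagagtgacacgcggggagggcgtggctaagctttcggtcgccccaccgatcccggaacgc
Oasl1: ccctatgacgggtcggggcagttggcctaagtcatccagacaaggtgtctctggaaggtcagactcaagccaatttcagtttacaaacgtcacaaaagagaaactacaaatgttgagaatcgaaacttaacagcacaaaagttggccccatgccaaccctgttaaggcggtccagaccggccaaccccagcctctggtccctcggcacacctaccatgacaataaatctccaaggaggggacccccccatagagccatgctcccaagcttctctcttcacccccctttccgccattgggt
Oasl2: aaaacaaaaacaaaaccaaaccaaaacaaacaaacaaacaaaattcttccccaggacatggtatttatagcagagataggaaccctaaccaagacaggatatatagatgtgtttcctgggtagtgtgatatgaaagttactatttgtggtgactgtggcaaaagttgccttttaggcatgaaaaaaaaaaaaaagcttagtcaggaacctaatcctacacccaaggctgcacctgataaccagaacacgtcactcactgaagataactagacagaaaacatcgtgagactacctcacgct
Oas1a: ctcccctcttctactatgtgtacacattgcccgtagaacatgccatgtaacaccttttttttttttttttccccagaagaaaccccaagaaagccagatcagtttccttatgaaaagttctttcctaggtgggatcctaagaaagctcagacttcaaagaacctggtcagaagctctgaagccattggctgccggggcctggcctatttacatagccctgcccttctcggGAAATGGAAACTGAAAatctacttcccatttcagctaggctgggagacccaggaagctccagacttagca
Ifit1 held 2 matches, at positions -104 to -95 and -85 to -76 from the start, and Stat2 held 1 at -222 to -213. In Oas1a 2 matches overlapped, at -20 to -11 and -14 to -5, and the Oasl1 and Oasl2 windows had no match to these letters. RefSeq promoter windows were found for 32 of the 39 members. The element was present in 16 of their 36 windows (44.4%), against 3.44% of all 32851 windows of the same length. The gamma-activated site, searched as TTCNNNGAA on both strands, was present in 7 of 36 (19.4%), against 8.3% of all. A match is a run of letters, and binding was not measured here.

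Among the antiviral effectors, Ifit1 had the largest fall. Ifit1 encodes a protein that binds viral RNA lacking the host's cap methylation. Its signals were 136, 114, 181 and 578 in knockouts, against 922, 1009, 418 and 1090 in wild types. The groups overlapped only because knockout replicate 4 lay above wild-type replicate 3. The mean was 252 ± 219 in knockouts and 860 ± 302 in wild types (SD, n = 4 each), a log2 fold change of -1.91 ± 0.43 (SE, limma adjusted p = 0.012). The call was lost with Xist as a covariate (-1.48, limma adjusted p = 0.114), in the 6 arrays lacking Xist signal (-1.46, 0.116) and with the ratio of 3' to 5' controls as a covariate (-1.69, 0.206). The arrays lacking Xist signal are knockout replicates 1 and 4 and the 4 wild types. Among them is the highest Ifit1 knockout, at 578. How far the smaller number of arrays accounts for a call lost there was not tested. The Ifit1 call held with each single array left out.

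Oasl1, a member of the oligoadenylate synthetase family that in mice restrains translation of Irf7, was the only member called higher. Its signals were 208, 169, 296 and 483 in knockouts, against 108, 156, 77 and 169 in wild types. Knockout replicate 2 and wild-type replicate 4 had the same signal, so the groups touched. The log2 fold change was 1.03 ± 0.30 (SE, limma adjusted p = 0.0416). The call was lost without knockout replicate 1, 3 or 4 or wild-type replicate 1, 2 or 3, with values of 0.76 to 1.15 and limma adjusted p of 0.0533 to 0.112. It was made in 8 of the 22 alternatives tried.

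The other 11 antiviral effectors tested did not pass. Oas1a, which makes the oligoadenylate that switches on RNase L, had signals of 217, 205, 195 and 1181 in knockouts, against 600, 723, 276 and 770 in wild types. Oasl2, a relative of Oas1a, had signals of 97, 63, 121 and 930 in knockouts, against 209, 270, 75 and 323 in wild types. Both genes were low in 3 knockouts and in wild-type replicate 3, and highest of all 8 arrays in knockout replicate 4. Their log2 fold changes were -0.75 ± 0.50 for Oas1a and -0.19 ± 0.66 for Oasl2 (SE, limma adjusted p = 0.389 and 0.888).

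Rsad2, the antiviral enzyme viperin, had signals of 293, 95, 120 and 1047 in knockouts, against 213, 323, 144 and 428 in wild types. Bst2, or tetherin, which holds budding virus at the cell surface, had signals of 105, 67, 86 and 659 in knockouts, against 177, 140, 97 and 143 in wild types. Each was at least 1 log2 unit higher in knockout replicate 4 than in any other knockout. Ifit2 had signals of 69, 106, 73 and 269 in knockouts, against 193, 221, 112 and 241 in wild types. Ifit3, a partner of Ifit1, had signals of 58, 44, 39 and 247 in knockouts, against 48, 45, 47 and 240 in wild types. Here 1 array of each genotype, replicate 4 in both, stood high and the other 6 lay between 39 and 58. The guanylate-binding proteins Gbp2 and Gbp3, and Oas2, Parp14 and Xaf1, had log2 fold changes of -0.35 to 0.29, with limma adjusted p of 0.501 and above.

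**Figure D2:**
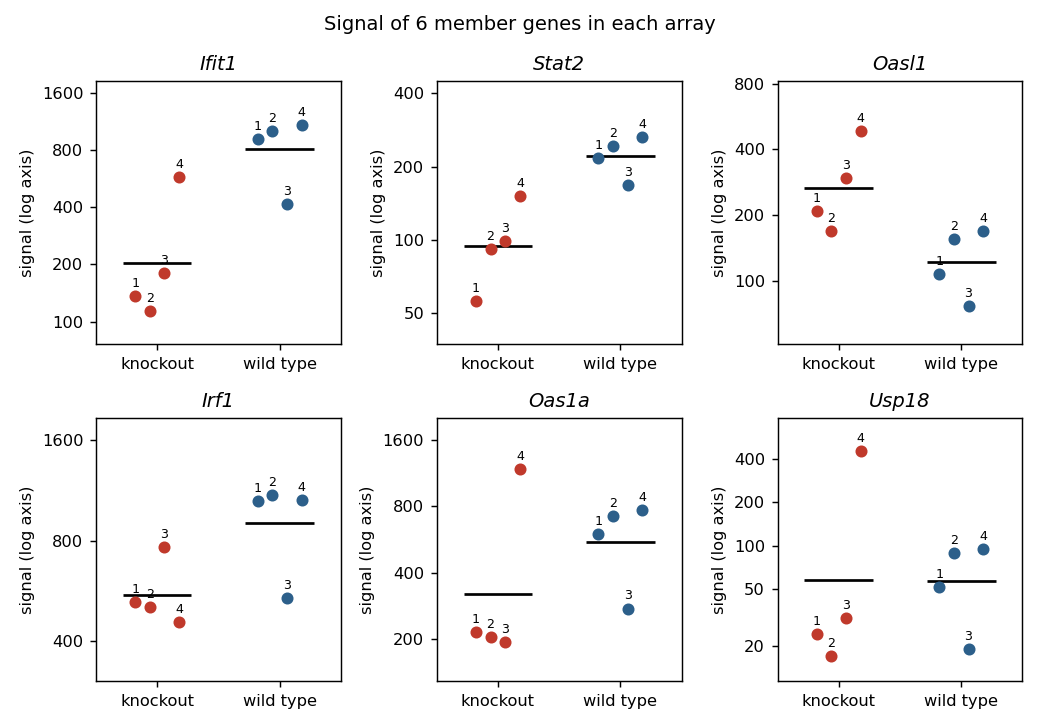
Signal (log axis) of 6 member genes in each array, with knockouts in red to the left of wild types in blue, the replicate number above each point and a line at the group's mean on the log2(signal + 16) scale. In Ifit1, Oas1a and Usp18 knockout replicate 4 lay above the other knockouts and wild-type replicate 3 below the other wild types, whereas in Irf1 knockout replicate 4 was the lowest knockout, at 457.

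Of the transcription factors, Stat2 fell and the 3 interferon regulatory factors tested did not pass. Stat2 pairs with Irf9 in the complex that binds the response element. Its brighter probe set had signals of 56, 92, 99 and 151 in knockouts, against 217, 244, 168 and 264 in wild types, so that the highest knockout lay below the lowest wild type. The log2 fold change was -1.10 ± 0.23 (SE, limma adjusted p = 0.00776). A second Stat2 probe set had signals of 40, 48, 57 and 89 in knockouts, against 152, 183, 103 and 170 in wild types, and a log2 fold change of -1.19 ± 0.22 (SE, limma adjusted p = 0.00349). The call of the brighter probe set was lost in the arrays lacking Xist signal (-1.11, limma adjusted p = 0.0553) and with the ratio of 3' to 5' controls as a covariate (-0.75, 0.256).

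Irf1, which drives the interferon gamma programme of antigen presentation, had signals of 523, 506, 763 and 457 in knockouts, against 1052, 1096, 538 and 1057 in wild types. Its log2 fold change was -0.69 ± 0.22 (SE, limma adjusted p = 0.0669). Without wild-type replicate 3, the only wild type within the knockouts' range, it was -0.93 and passed (limma adjusted p = 0.00176). That array was the lowest wild type, so leaving it out deepens the fall by construction. Irf7, which amplifies interferon production, had signals of 258, 151, 225 and 453 in knockouts, against 374, 299, 154 and 485 in wild types. Irf9 had signals of 284, 233, 327 and 485 in knockouts, against 402, 385, 219 and 484 in wild types. In both factors the groups overlapped through the same pair of arrays.

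Among the sensors and signalling genes, Ifih1 and Ddx58, which detect viral RNA in the cytoplasm as Mda5 and Rig-I, did not pass. Ifih1 had signals of 265, 231, 359 and 705 in knockouts, against 576, 584, 284 and 506 in wild types. Ddx58 had signals of 232, 172, 260 and 429 in knockouts, against 287, 363, 194 and 438 in wild types. Eif2ak2, the RNA-activated kinase that halts translation, had a log2 fold change of -0.16 ± 0.17 (SE). Trim25, the ubiquitin ligase that acts on Rig-I, had signals of 864, 818, 1055 and 1281 in knockouts, against 681, 810, 635 and 801 in wild types. The Trim25 groups did not overlap, but the difference did not pass (0.43 ± 0.14, SE, limma adjusted p = 0.0738), and its other 2 probe sets had log2 fold changes of 0.33 and 0.09.

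Usp18, the protease that removes Isg15 from proteins and dampens receptor signalling, showed the greatest spread. Its signals were 24, 17, 31 and 460 in knockouts, against 51, 89, 19 and 94 in wild types. Knockout replicate 4 exceeded the mean of the other knockouts by 3.59 log2 units, more than in any other member, and the log2 fold change was 0.03 ± 0.72 (SE, limma adjusted p = 0.985).

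The antigen-processing genes were more even across knockouts than the members as a whole (SD of the per-array mean 0.23 against 0.65). Across wild types they were not (0.38 against 0.37). Of the 7, 0 passed in limma, against 15.1% of all genes. At an unadjusted p under 0.05 the count was also 0, against 29.7% of all genes. With 7 genes such counts say little. B2m, the light chain of class I molecules, had signals of 6517, 5833, 7205 and 6661 in knockouts, against 6250, 6990, 4490 and 6271 in wild types, the brightest of all members' signals. Its log2 fold change was 0.14 ± 0.12 (SE, limma adjusted p = 0.518). Psmb8, an inducible proteasome subunit, had signals of 162, 131, 181 and 292 in knockouts, against 247, 263, 106 and 294 in wild types. Psmb10, another such subunit, had signals of 736, 741, 823 and 751 in knockouts, against 940, 1081, 684 and 1143 in wild types. Tapbp, or tapasin, which holds class I molecules at the peptide transporter, had signals of 684, 576, 767 and 845 in knockouts, against 1045, 1079, 508 and 1023 in wild types. For Psmb10 and Tapbp 3 of the 4 wild types lay above all knockouts, and wild-type replicate 3 lay below all of them. Without that array both passed, with log2 fold changes of -0.46 for Psmb10 (limma adjusted p = 0.00869) and -0.55 for Tapbp (0.0118). Leaving out the lowest wild type deepens a fall by construction, so these values are no independent evidence of one.

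Psmb9, and the transporter genes Tap1 and Tap2, had log2 fold changes of 0.10 ± 0.17, 0.40 ± 0.27 and 0.11 ± 0.21 (SE). Psmb9 and Tap1 lie head to head on chromosome 17 with starts 226 bases apart. Tap1 had signals of 34, 57, 82 and 97 in knockouts, against 50, 56, 25 and 53 in wild types.

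The small membrane proteins Ifitm1, Ifitm2 and Ifitm3, which hinder virus entry, had log2 fold changes of 0.06 to 0.33, none of which passed. Ifitm3 had signals of 1052, 1018, 717 and 3457 in knockouts, against 1080, 948, 921 and 1121 in wild types, and 7 of the 8 arrays lay between 717 and 1121. The chemokine Cxcl10 had signals of 27, 11, 26 and 96 in knockouts, against 25, 27, 24 and 56 in wild types. The 4 members too dim for the fit were compared by an exact two-sided permutation test, for which the smallest p possible is 0.0286. Mx1 had signals of 15, 9, 15 and 34 in knockouts, against 6, 28, 4 and 37 in wild types (exact permutation p = 0.914). Mx2 gave an exact permutation p of 0.714, Nlrc5, a class I gene activator, 0.114, and the 2 probe sets of the chemokine Cxcl9 0.886 and 0.2. Differences in these 4 were not detectable at such signals.

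The spread of the members among arrays of 1 genotype exceeded the difference between genotypes. The mean log2 level over the 33 genes was 7.74, 7.54, 7.80 and 8.96 in knockouts, against 8.18, 8.27, 7.63 and 8.49 in wild types. Over all genes tested it was 7.64 to 7.73 in knockouts and 7.69 to 7.72 in wild types. The group means of members were 8.01 ± 0.65 in knockouts and 8.14 ± 0.37 in wild types (SD, n = 4 each), a difference of -0.13 that is smaller than either SD. The 13 antiviral effectors stood at 6.89, 6.59, 6.83 and 8.79 in knockouts, against 7.41, 7.55, 6.91 and 7.99 in wild types. Antigen-processing genes stood at 8.57, 8.52, 8.85 and 9.01 in knockouts, against 8.92, 8.97, 8.17 and 8.91 in wild types.

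**Figure D3:**
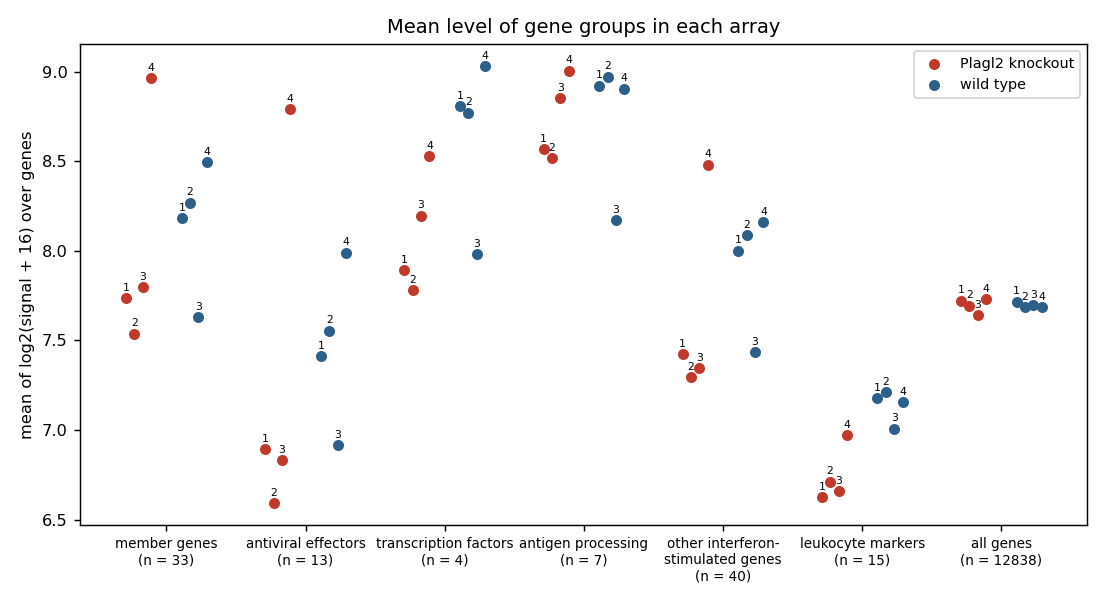
Mean of log2(signal + 16) over the genes of each group (number of genes under each name) in each array, with the 4 knockouts left of the 4 wild types in each group. In the antiviral effectors knockout replicate 4 stood at 8.79 while the other knockouts lay between 6.59 and 6.89, and the mean of all genes tested stayed between 7.64 and 7.73 in every array.

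The choice of the 2 arrays below was made after their values were seen, so the counts are descriptions. Knockout replicate 4 was the highest knockout in 30 of 33 members (90.9%), against 33.1% of all genes tested. It exceeded every other knockout by at least 1 log2 unit in 14 of 33 members (42.4%), against 77 of 12838 genes. Wild-type replicate 3 was the lowest wild type in 27 of 33 members (81.8%), against 30.7% of all genes. It lay below every other wild type by at least 0.5 log2 units in 15 of 33 members (45.5%), against 4.89% of all genes. Members with the response element in their promoter window (15 tested) had a median excess of knockout replicate 4 over the mean of the other knockouts of 1.62 log2 units (0.04 to 2.74), and the 14 without it one of 0.72 (-0.35 to 3.15). The ranges overlap over most of their length, and the highest value, that of Oasl2, belongs to a window without a match.

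Leaving out these arrays changed how many members were called. Without knockout replicate 4, 4 members were called lower (Ifit1, Ifit2, Oas1a and Stat2) and 0 higher, with 8.03% of all genes called lower and 6.27% higher. Without wild-type replicate 3, 5 were called lower (Ifit1, Irf1, Psmb10, Stat2 and Tapbp) and 0 higher, with 10.3% of all genes called lower and 9.31% higher. Without both, 17 of 33 were called lower and 0 higher, with 10.8% of all genes called lower and 9.27% higher. The median log2 fold change of members was then -0.63, with 28 of 33 below 0. Dropping the highest knockout or the lowest wild type, singly or together, moves these genes downward by construction. The 4, the 5 and the 17 are therefore no independent evidence of a fall.

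In those 6 arrays the effectors Oas1a, Oasl2, Ifit2, Parp14 and Bst2, the sensors Ifih1, Ddx58 and Eif2ak2, the factors Irf1, Irf7 and Irf9, and Psmb8, Psmb10, Tapbp and Usp18 were called lower beside Ifit1 and Stat2. Ifit1 had a log2 fold change of -2.70 (limma adjusted p = 7.38e-07) and Oas1a one of -1.68 (4.12e-06). Of the members with the response element 7 of 15 were called lower in these arrays, and of those without it 8 of 14.

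**Figure D4:**
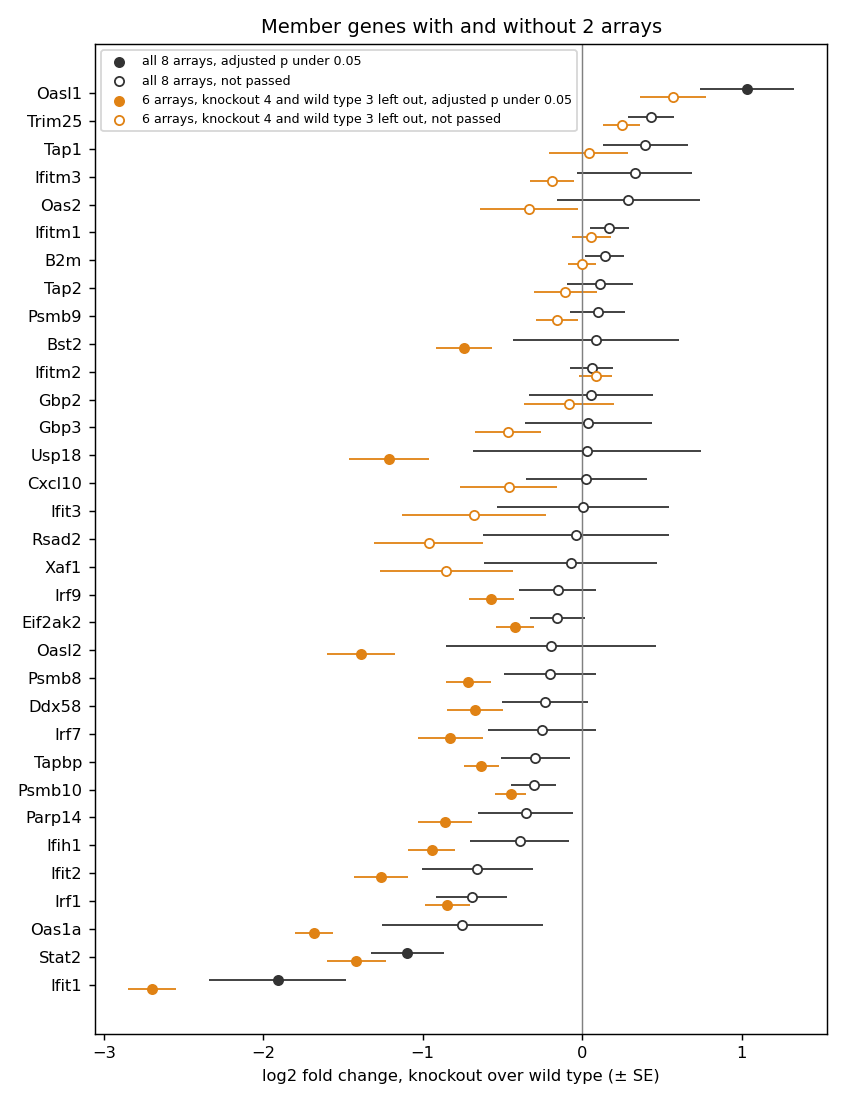
Log2 fold change, knockout over wild type, with its SE for each member gene tested, in all 8 arrays (black) and in the 6 arrays without knockout replicate 4 and wild-type replicate 3 (orange), with filled points where the limma adjusted p was under 0.05. In all 8 arrays 3 genes were filled, and in the 6 arrays 17, all of them to the left of 0.

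Among interferon receptor subunits, Il10rb and Ifnar2 fell and Ifngr1 rose in the knockout, while Ifnar1, Ifngr2 and Ifnlr1 did not pass. Of 18 receptor and Jak-Stat genes tested, 2 were called higher and 3 lower (27.8%, against 15.1% of all genes), with a median of -0.01. Il10rb, a subunit of the interferon lambda and interleukin-10 receptors, had signals of 677, 653, 753 and 573 in knockouts, against 1778, 1745, 1378 and 1838 in wild types. Its log2 fold change was -1.32 ± 0.12 (SE, limma adjusted p = 1.67e-05), and it was called in all 22 alternatives. Ifnar2, a subunit of the type I receptor, had signals of 134, 144, 135 and 137 in knockouts, against 275, 345, 183 and 350 in wild types (-0.95 ± 0.18, SE, limma adjusted p = 0.00426), and was also called in all 22. Ifngr1, the ligand-binding subunit of the interferon gamma receptor, had signals of 728, 686, 849 and 602 in knockouts, against 424, 468, 403 and 475 in wild types (0.67 ± 0.12, SE, limma adjusted p = 0.00258), a call lost with the ratio of 3' to 5' controls as a covariate (0.57, 0.109). In these probe sets, the brightest of each gene, groups did not overlap, and knockout replicate 4 was the lowest knockout for Il10rb and Ifngr1. Dimmer probe sets of Ifnar2 had log2 fold changes of -0.50 and -0.04 (limma adjusted p = 0.0865 and 0.922). A dimmer one of Il10rb had -0.73 (0.0684), so the Il10rb and Ifnar2 calls rest on their brightest probe sets. The other subunits had log2 fold changes of -0.25 for Ifnar1, -0.01 for Ifngr2 and 0.16 for Ifnlr1 (limma adjusted p = 0.221, 0.973 and 0.643). Socs3, a feedback inhibitor of Jak kinases, fell by 0.92 on the log2 scale and was called in all 21 alternatives that gave it a value. Irf2, an antagonist of Irf1, rose by 0.50 (limma adjusted p = 0.0367), a call made in 9 of 21 alternatives. It was lost without knockout replicate 1, 2 or 3 or wild-type replicate 1, 2 or 4 (0.40 to 0.55, limma adjusted p = 0.0526 to 0.112). The Irf2 call was also lost with either covariate and in the arrays lacking Xist signal.

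Interferon genes themselves were dim. Of 17 listed ligands 2 were tested, Ifnb1 and Ifnz, and neither passed. Ifnb1 had signals of 25, 17, 15 and 23 in knockouts, against 38, 50, 14 and 58 in wild types. Of 16 nucleic acid sensing genes, 2 were called lower and 0 higher (12.5%, against 15.1% of all genes). These were Mavs, the adaptor of the RNA sensors (-0.63 ± 0.14, SE, limma adjusted p = 0.00936), and Rnaseh2b, a subunit of an enzyme that removes RNA from DNA (-0.75 ± 0.14, 0.00478). Both calls were lost with either covariate and in the arrays lacking Xist signal.

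Of 40 other interferon-stimulated genes, 5 were called lower and 1 higher, with a median of -0.31. The share called, 15%, is that of all genes (15.1%), and 27.5% had an unadjusted p under 0.05, against 29.7% of all genes. Mov10, an RNA helicase that restricts retroelements, had signals of 185, 187, 199 and 234 in knockouts, against 492, 676, 510 and 584 in wild types (-1.42 ± 0.13, SE, limma adjusted p = 2.08e-05). Ifi30, a lysosomal thiol reductase of antigen processing, Samd9l, Slfn2 and Epsti1 had log2 fold changes of -0.51, -1.23, -1.12 and -0.98, and Plscr1 rose by 0.53. Epsti1 was called in 12 of 22 alternatives and lost the call without knockout replicate 1, 2 or 3 or wild-type replicate 1 or 2. Slfn2 was called in 15 of 21, with losses without knockout replicate 3 or wild-type replicate 1, 2 or 4, and Plscr1 in 17 of 21, with a loss without knockout replicate 1. Samd9l was called in 19 of 22 and Ifi30 in 21 of 22. The calls of Epsti1, Samd9l and Plscr1 were lost with either covariate and in the arrays lacking Xist signal. Slfn2 lost its call with Xist as a covariate and in those arrays, and Ifi30 with the ratio of 3' to 5' controls. Knockout replicate 4 was the highest knockout in 35 of these 40 genes and wild-type replicate 3 the lowest wild type in 30. In the receptor list the counts were 3 and 10 of 18.

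Of 12 genes listed as class I heavy chains, 2 were called lower (16.7%, against 15.1% of all genes called), and neither encodes a classical heavy chain. Fcgrt, the class I-like receptor that carries maternal antibody across the neonatal gut, had signals of 409, 358, 588 and 399 in knockouts, against 7632, 7323, 4221 and 6875 in wild types (-3.83 ± 0.19, SE, limma adjusted p = 2.95e-07). H2-Ke6, a dehydrogenase gene of the H2 region, fell by 0.89 on the log2 scale. Of 12 peptide-loading and proteasome genes, 2 were called (16.7%, against 15.1% of all genes). These were Pdia3 and Canx, chaperones of the endoplasmic reticulum, with log2 fold changes of -0.47 and -0.28. Pdia3 was called in 21 of 22 alternatives. Canx was called in 10 of 21, with losses without knockout replicate 1 or 2 or wild-type replicate 1, 2 or 4 (adjusted p = 0.0563 to 0.0879). Its call was also lost with either covariate and in the arrays lacking Xist signal. Of 12 class II genes limma called 0, against 15.1% of all genes, while 5 had an unadjusted p under 0.05 (41.7%, against 29.7%). Rfx5 had a log2 fold change of -0.33 (limma adjusted p = 0.141). Ctss, a protease of class II processing, had 747, 759, 891 and 1003 in knockouts, against 1815, 1943, 652 and 1988 in wild types (-0.78 ± 0.29, SE, limma adjusted p = 0.113).

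The macrophage markers Csf1r and Adgre1 fell in the knockout, and 13 other leukocyte markers tested did not pass. These 13 went both ways, with log2 fold changes from -0.89 for Itgax to 0.28 for Lyz2. Cd14 stood at 0.27, Itgam at 0.05 and Tyrobp at -0.01, and the median of the list was -0.25. Over the 15 of 26 markers tested the summed signal was 1841 to 2513 in knockouts and 4375 to 5913 in wild types. Csf1r, the receptor of macrophage growth factor, had signals of 628, 678, 663 and 858 in knockouts, against 3714, 4114, 2874 and 4306 in wild types. Without Csf1r the summed signals were 1213, 1275, 1213 and 1655 in knockouts, against 1584, 1573, 1501 and 1607 in wild types, so that knockout replicate 4 lay above every wild type. Csf1r and Adgre1 were the 2 of 15 called lower (-2.38 and -0.98, limma adjusted p = 7.88e-07 and 0.00205), and 0 were called higher. At an unadjusted p under 0.05 there were 4 of 15 (26.7%), against 29.7% of all genes. The Adgre1 call was lost with the ratio of 3' to 5' controls as a covariate (adjusted p = 0.0922). Of the 11 markers not tested, the 8 with a probe set, among them Cd3e, Cd4 and Cd79a of lymphocytes, had no signal above 48. In whole intestine, fewer cells of a type and less RNA per cell cannot be told apart. The part of leukocytes in the member genes' values was not tested. Of 7 epithelial markers, the keratins Krt8 and Krt19 were called higher and Krt18 lower (42.9%, against 15.1% of all genes). Of 8 stromal and 6 endothelial markers limma called 0, with 1 and 0 at an unadjusted p under 0.05, against 29.7% of all genes. The stromal Col1a1 and Col3a1 had log2 fold changes of 0.54 and 0.25 (limma adjusted p = 0.0859 and 0.203). The endothelial Tek and Lyve1 had -0.25 and 0.24 (0.261 and 0.307).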

How the data were processed

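Affymetrix MOE430 2.0 arrays of 4 Plagl2 knockout and 4 wild-type small intestines were compared, grouped by sample title. The deposited values are linear signal intensities, 1 for each probe set in each array, already scaled by the authors (the mean after trimming 2% at each end is about 150.05 in each array). How signals were computed from probes is not given in the sources used here. Detection calls were not used. The number of value columns left without a sample was 0.

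The 64 control probe sets were left out. Intensities were taken as log2(signal + 16), which makes fold changes of dim genes smaller. The 40% of probe sets with the lowest mean (signal under about 23.0) were dropped, and 27022 entered limma 3.58.1 (R 4.3.3), with lmFit and eBayes with intensity trend, genotype only, two-sided, Benjamini-Hochberg adjusted over all. A gene stands for its brightest tested probe set. Symbols come from the platform annotation and promoters from RefSeq, build GRCm38.p6. The number of arrays limits the precision.

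All members are named, with up to 6 called genes of each further list by smallest p, or 2 where none passed. Any other gene was picked with its values known. The members and lists were chosen with earlier results of these data known. The fit was tested on simulated data. Alternatives were other filters, offsets, normalization and weights, a replicate block, Xist signal and 3' to 5' ratio as covariates, probe set rules and each array left out. Leaving out knockout replicate 4 and wild-type replicate 3 together was added after the data were seen.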

Additional observations from a re-analysis of the deposited data

Results flagged for a closer look

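In 8 gene and genotype pairs, 1 array lay apart from the other 3 of its genotype by Dixon's ratio, the gap to the nearest array over the whole range of the 4, set against its 95% critical value. In knockouts this was replicate 4 every time, above the others, for Oas1a (0.943), Oas2 (0.886) and Usp18 (0.868). In wild types replicate 3 lay below the others for Tap1 (0.846), Tapbp (0.929) and Irf1 (0.942), and replicate 4 lay above the others for Ifit3 (0.967) and Cxcl10 (0.877). These are 3 of 33 member genes in knockouts, where 5.55% of all genes tested had such an array, and 5 of 33 in wild types, against 6.69%. Chance gives such a ratio in about 1 in 20 groups.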

How the results depend on the processing

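Over 22 alternatives, 678 of 720 member gene values kept their side of the threshold, 19 lost the call, 21 gained it with the same sign and 2 gained it with the opposite sign. Those 2 were Bst2 (-0.74) and Usp18 (-1.21) without knockout replicate 4 and wild-type replicate 3. A further 79 values in 20 genes, never called, differed in sign. Ifit1 was called in 19 alternatives, Stat2 in 20 and Oasl1 in 8. Leaving out 1 array gave 2224 to 4246 probe sets called (876 to 2085 higher, 1296 to 2161 lower), with 0 to 1 member probe sets higher and 3 to 8 lower, 0 to 1 member genes higher and 2 to 5 lower, and a member median of -0.41 to 0.15. No filter, quantile normalization and no intensity trend each left 0 member genes and 0 probe sets higher. Array weights gave 5215 probe sets called and 2631 higher, with 0 member probe sets higher, 7 lower, and 0 and 4 genes. The Xist covariate gave 2024 and 755, with 0 member genes or probe sets higher and 1 gene lower. The 6 arrays without Xist signal, which hold knockout replicates 1 and 4 and the 4 wild types, gave 2145 and 807. There 0 members were higher, and 1 probe set and 0 genes were lower. The 3' to 5' covariate gave 1390, 471 higher and 919 lower, with 0 members called either way. Since this ratio did not overlap between genotypes, the fit can separate the 2 only in part, and a call lost with it cannot be assigned to either. Without knockout replicate 4 and wild-type replicate 3, 0 members were higher, 21 probe sets and 17 genes lower, and the median was -0.63. The causes were not tested. Replicate numbers do not pair the samples (correlations of deviations -0.27 to -0.01, and 0 of 8 arrays correlated best with their own number). With the replicate block, 1915 probe sets were called (751 higher, 1164 lower), and the members called were 1 gene higher and 2 lower. Signals near the background limit Mx1, Mx2, Cxcl9, Nlrc5 and the interferon genes.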

Other observations

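Knockout replicate 4 also stood high in plasma protein genes. Of the 30 genes in which it exceeded the other knockouts most, 8 were members and 5 were on the list of other interferon-stimulated genes. Among all 12838 genes tested, 33 were members and 40 were on that list. Ifi27l2a, a small interferon-induced protein, had signals of 103, 88, 80 and 1926 in knockouts, against 139, 110, 58 and 251 in wild types. Rtp4 had 141, 133, 149 and 1093 in knockouts, against 652, 898, 212 and 964 in wild types. The same 30 held Alb, or albumin, with 656, 4, 32 and 4646 in knockouts, against 15, 22, 122 and 75 in wild types. Afp, or alpha-fetoprotein, had 976, 108, 122 and 4818 in knockouts, against 6256, 6496, 5360 and 5677 in wild types. Over 13 tested genes of a plasma protein list added after the data were seen, the mean log2 level was 7.30, 5.80, 5.81 and 9.60 in knockouts, against 7.09, 7.03, 7.42 and 7.38 in wild types. Member means in the same arrays were 7.74, 7.54, 7.80 and 8.96 in knockouts, against 8.18, 8.27, 7.63 and 8.49 in wild types. The part of plasma protein RNA in the member values was not tested.

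Probe sets of 1 gene did not always run the same way across arrays. For H2-D1, a classical class I heavy chain, 1 probe set had signals of 2761, 2975, 1577 and 4387 in knockouts, against 290, 3229, 905 and 3641 in wild types. Another had 945, 51, 1251 and 69 in knockouts, against 2075, 1483, 800 and 22 in wild types, with knockout replicates 2 and 4 the lowest knockouts here and the highest in the other probe set. H2-Q2 had 1559, 2058, 1795 and 1886 in knockouts, against 9, 1362, 1041 and 2300 in wild types. Class I genes are near-identical copies, and how far these probe sets share targets was not tested. For the member Xaf1, 1 probe set had 100, 83, 129 and 485 in knockouts, against 81, 211, 88 and 428 in wild types, and a dimmer one 32, 14, 22 and 36 in knockouts, against 331, 225, 24 and 33 in wild types.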
